A study of Danio rerio with 15 samples.

Results

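The genes described are those of the zebrafish egg coat that carry a zp number: zp2.6, zp2l1, zp2l2, zp3.1, zp3a.1, zp3a.2, zp3b, zp3c, zp3d.1, zp3d.2, zp3f.1 and zp3f.2. A probe set (the group of short probes on an Affymetrix array that reads 1 transcript) was included where the platform annotation gave it exactly 1 gene symbol and that symbol began with zp and a digit. The rule used no measured value and found 13 of the 15502 probe sets tested, which stand for 12 of 8793 genes. zp3.1 had 2 probe sets and each other gene had 1. All 12 genes entered the tests, since no filter on low values was used.

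Total RNA of zebrafish (Danio rerio) was measured on 15 arrays. Melanoma accounted for 6 of them, the skin beside such tumours (named mutant skin here) for 6 and wild-type skin for 3. Melanoma and mutant skin came from fish of the genotype mitf-BRAFV600E;p53-/-, which carry a mutant human BRAF transgene under the promoter of mitf, a pigment cell gene, and lack p53 function. Wild-type skin came from fish of the genotype Tu and was cut along the side of the body. All fish were 4 to 8 months old. Neither sex nor any batch is recorded, and nothing says that replicates were separate fish, so p-values measure only the spread between these arrays, which may be technical.

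Egg coat proteins share a zona pellucida domain, a folding unit through which the secreted proteins join into filaments. The filaments form the zona pellucida of mammals and the chorion of fish, which surrounds the egg. In zebrafish the zp2 and zp3 families have many copies and are known for transcription in the growing oocytes of the ovary, whereas in some other fish the liver makes egg coat proteins under oestrogen. None of the groups is labelled as ovary or liver.

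Values are log2 signals, each probe set on a scale of its own whose zero point the files do not explain. Differences between arrays can be read for each gene, but absolute levels, and levels of one gene against another, cannot. In RNA from a piece of tissue, fewer cells of a type and less RNA per cell cannot be told apart.

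The melanoma and skin labels were checked against genes of pigment cells and of the epidermis. mitfa, the pigment cell transcription factor, lay between 2.28 and 3.36 in melanoma 1 to 5, at -0.40 in melanoma 6, between -5.24 and -1.49 in mutant skin and between -5.23 and -4.08 in wild-type skin. Of the 10 pigment cell genes measured, 9 were called higher in melanoma than in mutant skin, beside 7.41% of all genes, and 9 higher than in wild-type skin, beside 9.34% of all genes (limma, adjusted p under 0.05). The keratin gene krt4 was lower in mutant skin 2, at -2.44, than in the other mutant skin arrays, where it was between -0.16 and 1.97. The keratin gene krt5 read -2.16 in mutant skin 2, but 1.09 in mutant skin 6, within the 0.87 to 1.30 of the other mutant skin arrays. The level of 31 keratinocyte genes (each gene centred on its mean of the 15 arrays, then averaged) was -1.71 in mutant skin 2 and -0.39 in mutant skin 6, against 1.40 to 2.08 in the other mutant skin arrays. Not every gene of this list was low there. In mutant skin 2 and 6 cldn7b read 1.50 and 2.13 and epcam 1.14 and 0.45, the highest values of both genes in mutant skin. In wild-type skin 1 to 3 this level was 0.34, 1.70 and 1.38. The level of 28 skeletal muscle genes reached 0.49 in melanoma 6 but only -4.39 to -2.67 in the other 5 melanoma arrays, and it was -0.25 in mutant skin 2, 0.41 in mutant skin 6, 2.13 to 2.82 in the other mutant skin arrays and 2.07 to 3.16 in wild-type skin. Of these muscle genes 24 were called lower in melanoma than in mutant skin, beside 5.63% of all genes, and their part in the egg coat results was not tested. Melanoma 6, mutant skin 2 and mutant skin 6 thus stood apart from their groups in these levels. The limma tests of the egg coat genes that compare their own group are given with and without them. Other tests are not all given without them.

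The egg coat genes were high in some arrays of each group and low in others. For all 12 genes the 6 highest arrays were melanoma 6, mutant skin 1, 2 and 6 and wild-type skin 1 and 2, and melanoma 1 to 5 and mutant skin 3 were near the bottom. zp2.6 spanned 11.43 log2 units over the 15 arrays, which was the 7th widest range among the 8793 genes. zp3f.1 had the 11th widest range, 11.25 log2 units, and zp3b the 59th, 9.91 log2 units. The narrowest range of a member, 6.43 log2 units for zp3d.2, still ranked 478th.

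**Figure D1:**
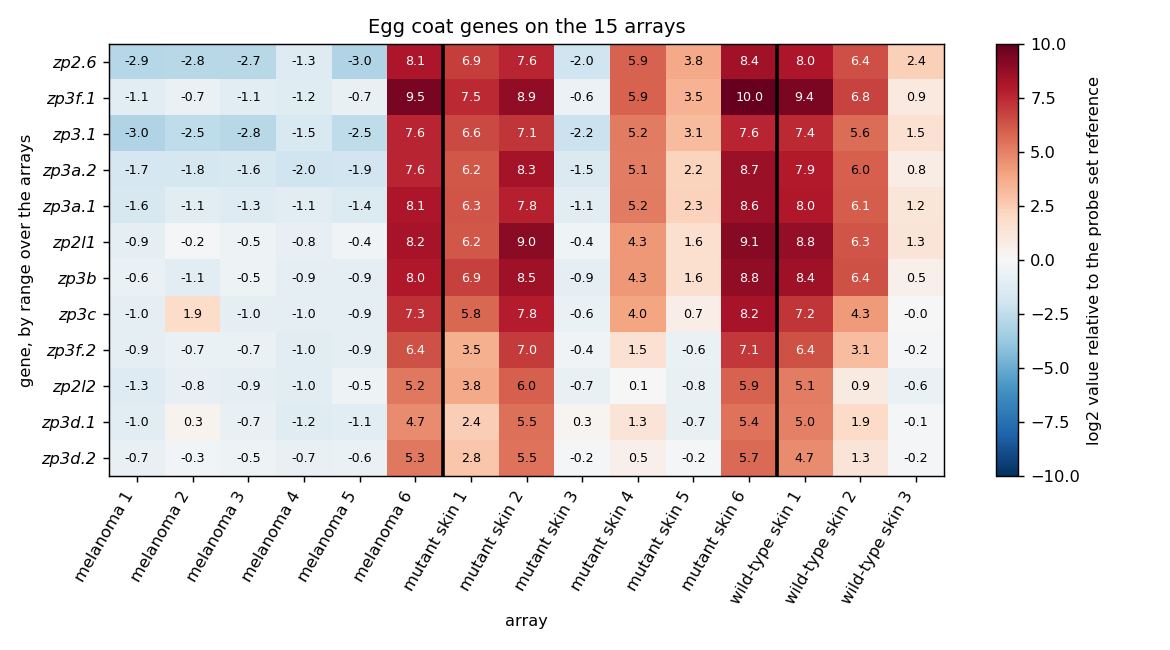
Log2 value, relative to the reference of its probe set, of each of the 12 egg coat genes (rows, by their range) on each of the 15 arrays (columns, with black lines between melanoma, mutant skin and wild-type skin). Red cells mark high values, as in melanoma 6 (4.71 to 9.51 over the genes), and pale or blue cells mark low ones, as in mutant skin 3 (-2.18 to 0.26).

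The zp2-type genes encode egg coat proteins related to mammalian ZP2. zp2.6 read -2.87, -2.78, -2.75, -1.31, -3.03 and 8.06 in melanoma 1 to 6, and 6.94, 7.58, -2.01, 5.89, 3.75 and 8.40 in mutant skin 1 to 6. Wild-type skin 1 to 3 gave 8.05, 6.44 and 2.41. The 5 low melanoma arrays lay within 1.72 log2 units of each other, with melanoma 4 the highest of them, and the sixth lay 9.37 log2 units above melanoma 4, among the high skin arrays. The groups overlapped.

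zp2l1, a zp2-like gene, lay between -0.88 and -0.15 in melanoma 1 to 5 and at 8.22 in melanoma 6. In mutant skin its lowest, median and highest values were -0.42, 5.29 and 9.10, and wild-type skin 1 to 3 read 8.81, 6.32 and 1.27. zp2l2 lay between -1.30 and -0.52 in melanoma 1 to 5, at 5.24 in melanoma 6, between -0.75 and 6.00 in mutant skin with a median of 1.92, and at 5.12, 0.89 and -0.65 in wild-type skin 1 to 3. zp2l2 differed from zp2.6 and zp2l1 in the middle of the order: in mutant skin 4 it stood 18.7% of the way from its lowest to its highest array, against 78.0% for zp2.6 and 52.3% for zp2l1.

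The zp3-type genes encode egg coat proteins related to mammalian ZP3. zp3b read -0.65, -1.08, -0.52, -0.86, -0.93 and 8.00 in melanoma 1 to 6. Mutant skin 1 to 6 gave 6.85, 8.50, -0.91, 4.33, 1.58 and 8.83, and wild-type skin gave 8.44, 6.36 and 0.52. Mutant skin 3 lay among the melanoma arrays and melanoma 6 among the high skin arrays, so the groups overlapped. The mean of zp3b was 0.66 ± 3.60 in melanoma (SD, n = 6), 4.86 ± 3.93 in mutant skin (SD, n = 6) and 5.11 ± 4.10 in wild-type skin (SD, n = 3). The mean of zp2.6 was -0.78 ± 4.38 in melanoma (SD, n = 6), 5.09 ± 3.83 in mutant skin (SD, n = 6) and 5.63 ± 2.90 in wild-type skin (SD, n = 3). The SDs of zp3b were about as large as the differences between melanoma and either skin group, and those of the 2 skin groups were far larger than the difference between them.

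**Figure D2:**
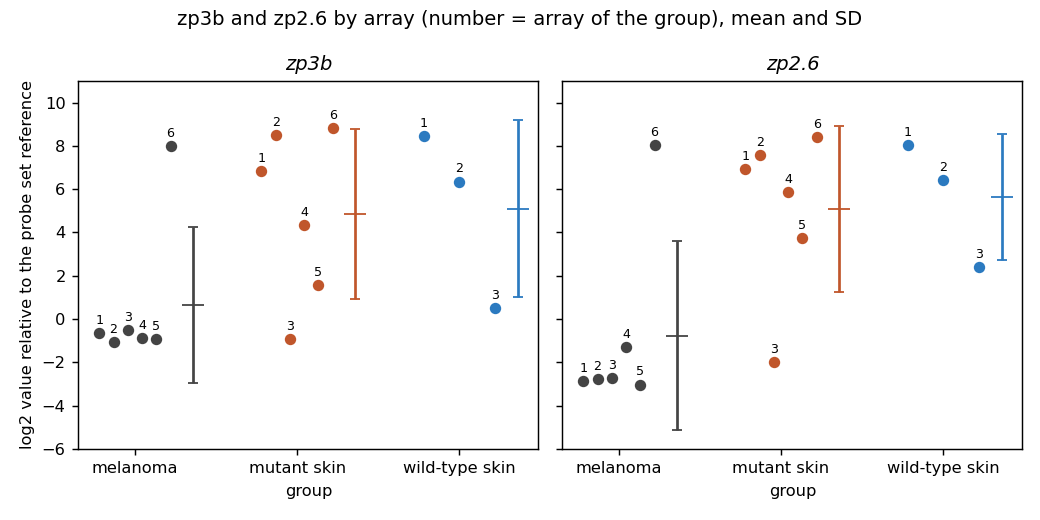
Log2 values of zp3b (left) and zp2.6 (right) on each array, numbered within melanoma, mutant skin and wild-type skin; the horizontal tick and bar beside each group are its mean and SD. Melanoma 6, at 8.00 for zp3b and 8.06 for zp2.6, lies far from the other 5 melanoma arrays, and mutant skin 3, at -0.91 and -2.01, is the lowest mutant skin array.

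zp3.1, a zp3 copy, read the average of 2 probe sets: between -3.04 and -1.54 in melanoma 1 to 5, 7.62 in melanoma 6, -2.18 to 7.64 in mutant skin with a median of 5.86, and 7.45, 5.59 and 1.50 in wild-type skin 1 to 3. Its 2 probe sets ranged together from low to high, but one of them carries the suffix with which Affymetrix marks probes that may bind several similar transcripts, and the gene ID given for that probe set was not in the RefSeq table. zp3a.1 lay between -1.61 and -1.06 in melanoma 1 to 5, at 8.07 in melanoma 6, between -1.12 and 8.59 in mutant skin with a median of 5.74, and at 7.97, 6.08 and 1.23 in wild-type skin 1 to 3. zp3a.2 lay between -2.01 and -1.62 in melanoma 1 to 5, at 7.63 in melanoma 6, between -1.46 and 8.67 in mutant skin with a median of 5.65, and at 7.91, 5.95 and 0.76 in wild-type skin 1 to 3. zp3a.1 and zp3a.2 gave the 7 highest arrays the same order except that melanoma 6 and mutant skin 2 exchanged ranks 2 and 4.

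zp3c lay between -1.01 and -0.91 in 4 of the melanoma 1 to 5 arrays and at 1.86 in melanoma 2, and it read 7.33 in melanoma 6. In mutant skin it ran from -0.63 to 8.23 with a median of 4.86, and wild-type skin 1 to 3 read 7.16, 4.25 and -0.01. zp3f.1 lay between -1.21 and -0.67 in melanoma 1 to 5, at 9.51 in melanoma 6, between -0.60 and 10.04 in mutant skin with a median of 6.69, and at 9.38, 6.76 and 0.95 in wild-type skin 1 to 3. The 10.04 in mutant skin 6 was the highest value of zp3f.1, and mutant skin 6 was the highest array of 10 of the 12 genes.

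The other zp3 genes are zp3f.2 and the zp3d pair. zp3f.2 lay between -1.02 and -0.68 in melanoma 1 to 5, at 6.38 in melanoma 6, between -0.63 and 7.08 in mutant skin with a median of 2.51, and at 6.36, 3.07 and -0.19 in wild-type skin 1 to 3. zp3d.1 lay between -1.22 and 0.32 in melanoma 1 to 5, at 4.71 in melanoma 6, between -0.72 and 5.48 in mutant skin with a median of 1.86, and at 5.02, 1.89 and -0.12 in wild-type skin 1 to 3. zp3d.2 lay between -0.75 and -0.26 in melanoma 1 to 5, at 5.29 in melanoma 6, between -0.21 and 5.68 in mutant skin with a median of 1.65, and at 4.70, 1.33 and -0.17 in wild-type skin 1 to 3. In mutant skin 5 these 3 genes stood 4.81% to 8.31% of the way up their ranges, inside or just above the span of melanoma 1 to 5.

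The order of the arrays was close to the same for all 12 genes. Mutant skin 6 ranked 1 or 2 for every gene, mutant skin 2 ranked 1 to 4, melanoma 6 ranked 2 to 4 and wild-type skin 1 ranked 3 or 4. Mutant skin 1 and wild-type skin 2 took ranks 5 and 6, and mutant skin 4 ranked 7 for all 12 genes. The lower arrays were mixed, with mutant skin 5 at ranks 8 to 11, wild-type skin 3 at 8 to 10, mutant skin 3 at 9 to 13 and melanoma 1 to 5 at 8 to 15. Arrays of melanoma, mutant skin and wild-type skin thus stood side by side at the top of the order, and in the top 4 places the order changed from gene to gene.

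Traces of the egg coat genes were read in the arrays that were otherwise low, by placing each array between the lowest (0%) and the highest (100%) log2 value of the gene. The median place of the 12 genes was between 0.145% and 5.00% in melanoma 1 to 5 and 91.5% in melanoma 6. In mutant skin 1 to 6 it was 75.0%, 96.5%, 6.63%, 54.1%, 25.7% and 100%, and wild-type skin 1 to 3 stood at 93.5%, 71.5% and 17.7%. Mutant skin 5 and wild-type skin 3 thus lay between the low and the high arrays, and mutant skin 3 lay close to melanoma 1 to 5.

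In mutant skin 5, 9 of the 12 genes lay above every one of melanoma 1 to 5, and the other 3 were zp2l2, zp3c and zp3d.1. The share of all genes that did so was not counted, for this array or those below. These counts therefore cannot be set against a background. zp2.6 exceeded the highest of these melanoma arrays by 5.06 log2 units, and its value stood 59.3% of the way up its range. zp3.1 followed with 4.67 log2 units and 57.8%, zp3f.1 with 4.16 and 41.8%, and zp3a.2 with 3.85 and 39.7%. Each of these 4 excesses was larger than the whole spread of that gene over melanoma 1 to 5, which was 1.72, 1.50, 0.54 and 0.39 log2 units. zp3b exceeded by 2.09 log2 units, and zp3d.2 and zp3f.2 by 0.05 log2 units each. zp2.6, zp3.1, zp3f.1 and zp3a.2 also had the widest ranges of the members over all arrays, 11.43, 10.68, 11.25 and 10.68 log2 units. The narrowest ranges were those of zp2l2, zp3c, zp3d.1, zp3d.2 and zp3f.2, at 7.30, 9.24, 6.70, 6.43 and 8.09 log2 units. The excess of a gene is itself a part of its range, so larger excesses in genes of wider range are partly built in. The places in percent of the range differed as well, from 59.3% for zp2.6 to 4.81% for zp3f.2. The part of the widths in these differences was not tested.

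In wild-type skin 3, again 9 of 12 genes lay above all of melanoma 1 to 5, with the same 3 exceptions. zp3d.2 exceeded there by only 0.09 log2 units, less than its spread of 0.48 log2 units over melanoma 1 to 5. zp2.6 stood highest in its range there as well, 3.72 log2 units above those melanoma arrays and 47.6% up its range, followed by zp3.1 at 3.04 log2 units and 42.5%. zp3b exceeded by 1.04 log2 units and zp3f.1 by 1.61. In mutant skin 3 only zp3a.2, zp3d.2, zp3f.1 and zp3f.2 lay above melanoma 1 to 5, by at most 0.32 log2 units, and zp2.6 lay 0.70 log2 units below the highest of them. Mutant skin 4 exceeded for all 12 genes, by 0.59 log2 units for zp2l2 up to 7.20 for zp2.6. The comparison array matters for zp2.6 and zp3.1, since melanoma 4 was above the other 4 low melanoma arrays for both, and for zp3c and zp3d.1, since melanoma 2 was.

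**Figure D3:**
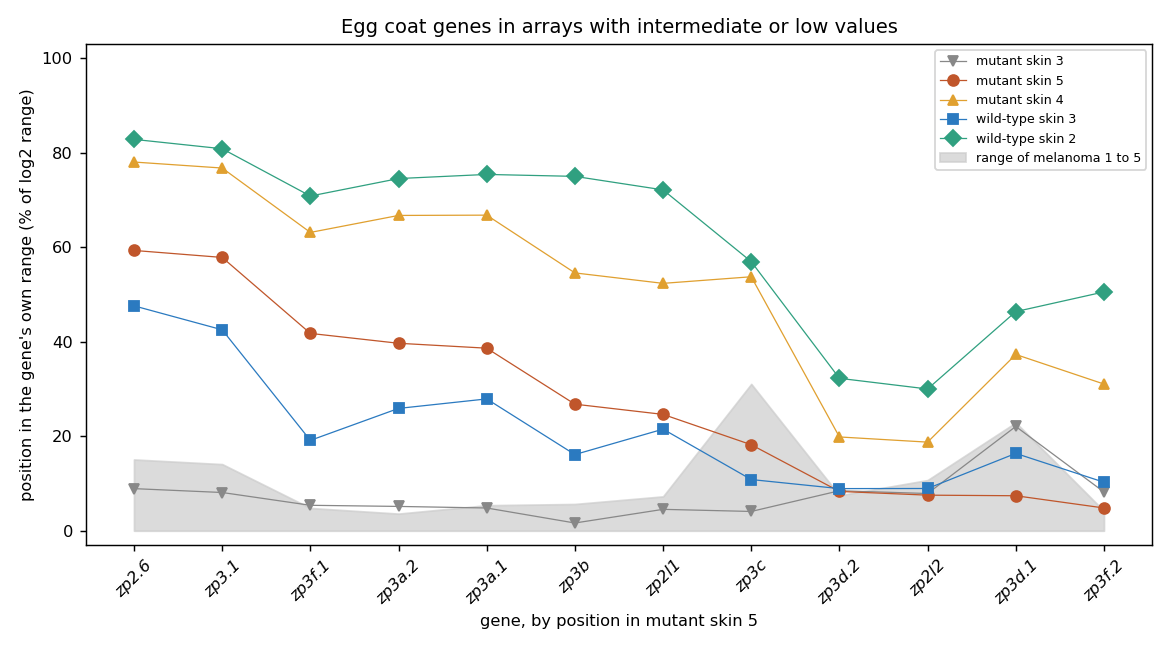
Place of mutant skin 3, 5 and 4 and wild-type skin 3 and 2 in each gene's own log2 range (0% is the gene's lowest array, 100% its highest), with genes ordered by their place in mutant skin 5 and the range of melanoma 1 to 5 in grey. In mutant skin 5 the place falls to 4.81% for zp3f.2, against 59.3% for zp2.6, and zp2.6 is also highest in wild-type skin 3, while mutant skin 3 stays within or close to the grey band.

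Other genes known from the oocyte were read beside these traces. buc, which organises the Balbiani body of the early oocyte, read 7.98 in melanoma 6 and between -1.34 and -0.52 in melanoma 1 to 5. It read 1.23 in mutant skin 5, -0.64 in mutant skin 3 and 0.47 in wild-type skin 3. h1m, a maternal linker histone, read 2.71 in mutant skin 5 and 2.44 in wild-type skin 3, against -1.52 to -0.29 in melanoma 1 to 5. cpeb1b, a regulator of stored maternal mRNA, read -0.61 in mutant skin 5 and -0.30 in wild-type skin 3, against -1.15 to -0.85 in melanoma 1 to 5. Like the egg coat genes, the oocyte genes thus differed among themselves in how far these 2 arrays stood above melanoma 1 to 5.

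The difference between melanoma and mutant skin was tested by a linear model over all genes (limma, two-sided, Benjamini-Hochberg adjusted over 8793 genes, threshold 0.05). Of the 12 egg coat genes 0 passed, in a comparison in which 13.0% of all genes passed, 5.63% as lower and 7.41% as higher in melanoma. None of the 12 separated the groups without overlap, beside 2.77% of all genes. All 12 means were lower in melanoma, with a median log2 change of -4.14, from -5.87 for zp2.6 to -1.93 for zp3d.2, while the median over all genes was 0.021. At an unadjusted p under 0.05, 5 of the 12 passed, beside 27.8% of all genes. The log2 change of zp2.6 was -5.87 ± 2.06 (SE, 95% interval -10.26 to -1.48), a 58.5-fold lower geometric mean, with a limma adjusted p of 0.0747. The log2 change of zp3b was -4.20 ± 2.00 (SE, 95% interval -8.47 to 0.06), an 18.4-fold lower geometric mean, with a limma adjusted p of 0.188. Both folds compare means taken on the log2 scale, not means of the unlogged signal.

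The errors were large, with a median SE of 1.95 for the 12 genes and 0.399 for all genes. Of the 6 melanoma arrays, 5 lay below the median of mutant skin for every member, and the exception was melanoma 6. A two-sided exact permutation test of the group means, with 924 arrangements and a smallest possible p of 0.00216, gave p = 0.0823 for zp3b and p = 0.0519 for zp2.6.

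Without melanoma 6, 7 of the 12 genes were called lower in melanoma than in mutant skin by the same limma fit, beside 8.61% of all genes called lower. They were zp2.6, zp2l1, zp3.1, zp3a.1, zp3a.2, zp3b and zp3f.1, with zp2.6 at -7.64 ± 1.57 (SE, limma adjusted p = 0.0035) and zp3b at -5.67 ± 1.72 (SE, limma adjusted p = 0.0299). Leaving out mutant skin 3 instead, the lowest mutant skin array for most members, zp2.6, zp3.1 and zp3a.2 were called lower, beside 4.22% of all genes. When limma weighted the arrays by their agreement with the fit, 7 of the 12 genes were called lower, beside 13.6% of all genes. Without mutant skin 2, 0 of the 12 passed, beside 8.11% of all genes called lower, and the median change was -3.37. Without mutant skin 6, 0 of the 12 passed as well, beside 6.47% of all genes called lower. After quantile normalization of all 15 arrays zp2.6 and zp3.1 were called lower, beside 8.11% of all genes. Whether egg coat genes passed thus depended on single arrays and on the normalization and weights.

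Against wild-type skin, melanoma had lower means of all 12 genes and 0 passed the limma test, in a comparison in which 16.8% of all genes passed, 7.48% as lower and 9.34% as higher. None separated the groups without overlap, beside 18.1% of all genes. The median log2 change was -4.50, from -6.41 for zp2.6 to -1.55 for zp3d.2, and the median over all genes was -0.025. At an unadjusted p under 0.05, 2 of the 12 passed, beside 29.8% of all genes. The log2 change was -6.41 ± 2.52 for zp2.6 (SE, limma adjusted p = 0.0993) and -4.45 ± 2.45 for zp3b (SE, limma adjusted p = 0.244). The exact permutation test over 84 arrangements gave p = 0.190 for zp3b and p = 0.0952 for zp2.6.

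Without melanoma 6, 6 genes were called lower than in wild-type skin, beside 9.22% of all genes: zp2.6, zp2l1, zp3.1, zp3a.1, zp3a.2 and zp3f.1. The log2 change of zp2.6 was then -8.18 ± 1.89 (SE, limma adjusted p = 0.0069), while zp3b at -5.91 ± 2.07 (SE, limma adjusted p = 0.0545) did not pass. With array weights 10 of the 12 were called lower, beside 18.7% of all genes. Without wild-type skin 1, 0 of the 12 passed, beside 7.57% of all genes called lower, and the median change was -2.83. Without wild-type skin 2 or 3, 0 passed as well, beside 3.29% and 2.79% of all genes called lower. The median changes were then -3.98 and -6.70. The 3 wild-type arrays are shared by both comparisons with wild-type skin.

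Between mutant skin and wild-type skin 0 of the 12 egg coat genes passed the limma test, beside 0.136% of all genes, 0.0227% as higher and 0.114% as lower in mutant skin. None separated the groups without overlap, beside 3.2% of all genes. At an unadjusted p under 0.05, 0 of the 12 genes passed, beside 7.26% of all genes. Of the 12 means, 7 were lower and 5 higher in mutant skin, with a median log2 change of -0.052 and a range of -0.54 for zp2.6 to 0.60 for zp2l2, and the limma adjusted p was 0.998 for each. Without mutant skin 2, or without mutant skin 6, 0 of the 12 passed as well, beside 0.091% of all genes called lower in each fit. The 95% interval for zp3b ran from -5.47 to 4.98 log2 units around a change of -0.24, so changes of several log2 units in either direction could not be seen with these arrays. The exact permutation test gave p = 0.976 for zp3b and p = 0.976 for zp2.6. Both skin groups spanned much of the order, from rank 1 to rank 13 in mutant skin and from rank 3 to rank 10 in wild-type skin.

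**Figure D4:**
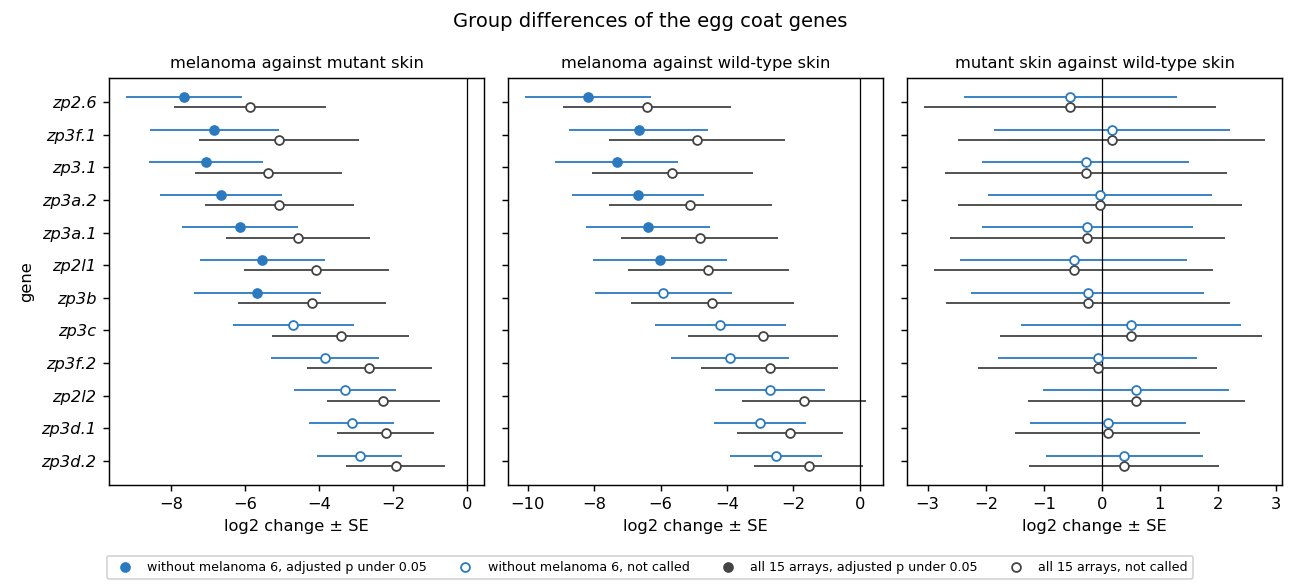
Log2 change ± SE of each egg coat gene for melanoma against mutant skin, melanoma against wild-type skin and mutant skin against wild-type skin, in the limma fit to all 15 arrays (dark) and without melanoma 6 (blue); filled points have an adjusted p under 0.05. With all 15 arrays no point is filled, and without melanoma 6 there are 7 filled points in the left panel and 6 in the middle panel.

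The difference zp3b minus zp2.6 within each array was also compared. It averaged 1.44 ± 1.00 in melanoma (SD, n = 6), -0.23 ± 1.35 in mutant skin (SD, n = 6) and -0.53 ± 1.2 in wild-type skin (SD, n = 3). Because each gene has its own unstated reference, only changes of this difference can be read. The exact permutation test gave p = 0.0281 for melanoma against mutant skin, p = 0.0476 for melanoma against wild-type skin and p = 0.667 for mutant skin against wild-type skin. Adjusted over these 3 comparisons the exact p were 0.0714, 0.0714 and 0.667, so none passed. Without melanoma 6 the difference between melanoma and mutant skin was 1.97 log2 units, with an exact permutation p of 0.0390 after the same adjustment. That was the only 1 of the 12 tests leaving out 1 array of these groups that passed. For melanoma against wild-type skin 0 of 9 such tests passed, with a smallest adjusted exact permutation p of 0.0536. None of these 9 could have passed, since too few arrangements of the arrays remained for an adjusted p under 0.05. In melanoma 1 to 5 both genes stood near the bottom of their ranges, zp3b at 0% to 5.65% and zp2.6 at 0% to 15.1%, and the ranges differ (9.91 and 11.43 log2 units). A difference between the 2 genes there cannot be told apart from both being low.

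Array by array, the difference was 2.22, 1.70, 2.23, 0.45, 2.10 and -0.07 in melanoma 1 to 6, and -0.08, 0.92, 1.1, -1.56, -2.17 and 0.43 in mutant skin 1 to 6. Wild-type skin gave 0.39, -0.08 and -1.89. The lowest 3 values fell in mutant skin 4 and 5 and wild-type skin 3, the arrays with intermediate or trace values, where zp2.6 stood higher in its range than zp3b did.

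The 12 genes were compared by the mean absolute difference between 2 genes over the 15 arrays after each gene was centred on its mean. The values were not scaled, so 2 genes with ranges of unlike width lie apart even where they order the arrays alike. Among the 66 pairs the closest was zp3a.1 and zp3a.2, at 0.273 log2 units, and the farthest was zp2.6 and zp3d.2, at 2.65. The farthest pair were the members with the widest and the narrowest range, 11.43 and 6.43 log2 units. In the RefSeq gene order of the assembly GRCz12tu the zp3a pair are neighbours, and so are zp3d.1 and zp3d.2, which ranked 5th at 0.391 log2 units. zp3f.1 and zp3f.2 are neighbours as well, but ranked 48th at 1.68 log2 units, with ranges of 11.25 and 8.09 log2 units. zp3b and zp2.6 lie next to no other member and ranked 32nd at 1.08 log2 units.

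Over all genes measured, the 6 closest to zp3b were buc (0.269 log2 units), a2m3b (0.269), kpna7 (0.315), map1lc3c (0.317), zp2l1 (0.319) and nanog (0.335). nanog is a transcription factor that zebrafish eggs carry as maternal RNA, and kpna7 belongs to the importins, carriers of proteins into the nucleus. The genes closest to zp2.6 were zp3.1 (0.320), cldnd (0.554), zpax1 (0.581), si:dkey-229d11.5 (0.643), zpax4 (0.696) and slc7a1b (0.758). zpax1 and zpax4 are of the zp family too, outside the numbered genes. The median such difference to all other genes was 3.89 log2 units for zp3b and 4.38 for zp2.6. buc was high and low in the same arrays as zp3b, and read 8.24 in mutant skin 6, 6.06 in wild-type skin 2 and -0.64 in mutant skin 3.

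zp2.6 and zp3.1 belong to groups of near-identical copies, so signal assigned to them is uncertain. In the RefSeq gene order zp2.6 stands next to zp2.1, and zp3.1 next to zp3. A further 7 zp probe sets are annotated to several genes at once, among them zp2.1, zp2.2, zp2.3, zp2.5, zp3, zp3.2 and zp3e, and stayed outside the rule. All 7 were between -5.17 and -0.74 in melanoma 1 to 5 and between 6.92 and 8.26 in melanoma 6. In mutant skin 5 they read 1.74 to 3.27 and in wild-type skin 3 they read 0.51 to 1.95, in both arrays above their own values in melanoma 1 to 5.

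Lists of genes known from the ovary and other organs were read beside the egg coat genes, each by its level as defined for the keratinocyte genes. For the 21 oocyte genes this level was between -3.01 and -2.72 in melanoma 1 to 5 and 3.96 in melanoma 6. Mutant skin 1 to 6 stood at 2.50, 3.97, -2.76, 0.52, -1.71 and 4.39, and wild-type skin 1 to 3 at 3.81, 1.61 and -2.05. The egg coat genes and the oocyte list were thus high in the same arrays. org, an oogenesis-related gene, read 8.28 in melanoma 6 and 9.02 in mutant skin 6, and btg4, which promotes decay of maternal mRNA in mouse eggs, read 9.07 and 9.37 there.

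The 10 germ granule genes, such as nanos3, an RNA-binding protein that germ cells need, gave a level of 3.09 in melanoma 6 and between -2.08 and -1.78 in melanoma 1 to 5. In mutant skin 4 it was -0.77 and in mutant skin 5 it was -2.08, as low as in melanoma 3. Genes of the somatic cells around the oocyte spanned less: the level of the 14 measured follicle genes was between -0.49 and -0.05 in melanoma, between -0.26 and 0.73 in mutant skin and between -0.07 and 0.23 in wild-type skin. Among the 4 with the widest ranges hsd3b2, an enzyme of steroid synthesis, read 3.67 in melanoma 6 and 4.38 in mutant skin 6. cyp17a1 read 3.47 and 3.07 there, star -0.52 and 3.55, and inhbb -3.45 and -2.36. The level of this list thus averages genes that went in opposite directions.

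Yolk precursors, made by the liver and taken up by oocytes, did not follow the egg coat genes in every array. vtg2 read 11.20 in melanoma 6, 10.32 and 9.72 in mutant skin 4 and 6 and 6.67 in wild-type skin 2. It read -0.23 and -1.82 in mutant skin 1 and 2 and -1.34 in wild-type skin 1, where zp3b read 6.85, 8.50 and 8.44. vtg3 read 8.63 in melanoma 6, 6.46 and 5.73 in mutant skin 4 and 6, and between -0.86 and 0.03 in the other skin arrays. The 16 exocrine pancreas genes, digestive enzymes such as ctrb.1, were highest in mutant skin 4 and 1, with levels of 4.19 and 2.44, and were between -0.97 and -0.66 in all 6 melanoma arrays. The part of these other tissues in the egg coat signal was not tested.

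**Figure D5:**
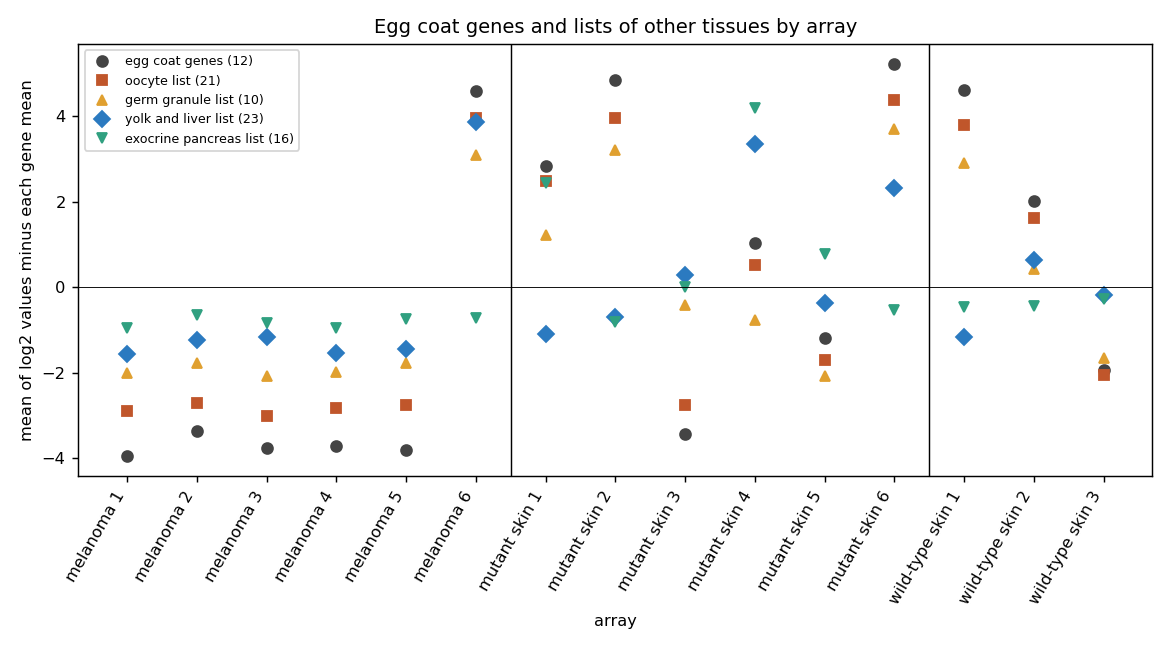
List level on each array (average of log2 values after centring each gene on its mean) for the 12 egg coat genes and for genes of the oocyte (21), germ granule (10), yolk and liver (23) and exocrine pancreas (16); black lines separate melanoma, mutant skin and wild-type skin. Egg coat and oocyte points lie on the same side of 0 in each array, at 4.60 and 3.96 in melanoma 6. The yolk and liver points lie on the other side of 0 from the egg coat points in mutant skin 1 and 2 and wild-type skin 1. They are the lowest points in mutant skin 1 and wild-type skin 1. In mutant skin 2 the exocrine pancreas point, at -0.81, lies below the yolk and liver point, at -0.70. In mutant skin 3, at 0.29, the yolk and liver point lies on the other side too, above the others.

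In the limma fit to all 15 arrays, 0 of the 21 oocyte genes were called lower in melanoma than in mutant skin. Called higher were 2, nanos1 (2.41 ± 0.70, SE, limma adjusted p = 0.0337) and cpeb1a (1.14 ± 0.32, SE, limma adjusted p = 0.0309). nanos1 was higher than in wild-type skin as well (2.72 ± 0.85, SE, adjusted p = 0.0411). Both are RNA-binding regulators of translation also known outside the germ line, and they are named here because so few of the list passed. The median change of the list was -3.65 against mutant skin. Of the 10 germ granule genes 0 passed in either direction in any of the 3 comparisons, and their median change was -2.0 against mutant skin. Between melanoma and mutant skin 5.63% of all genes were called lower and 7.41% higher. Without melanoma 6, 13 of the 21 oocyte genes and 4 of the 10 germ granule genes were called lower than in mutant skin, beside 8.61% of all genes. Against wild-type skin 7 oocyte genes and 0 germ granule genes were then called lower, beside 9.22% of all genes.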

How the data were processed

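RNA of 15 zebrafish samples was measured on Affymetrix arrays. The log2 values were deposited by the authors, who used GCRMA (background correction and normalization) per the submitters' processing notes; version, reference and genome build are not given in the sources used here. No egg coat gene reached the floor of -6.64, which is log2 of 0.01. Array medians ran from -0.56 to 0.098. The number of arrays limits precision.

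Of 15617 probe sets, 115 controls were left out. Of the rest, 10795 had 1 gene symbol, 135 several and 4572 none, and 10711 gene IDs matched RefSeq. A gene's value was the mean of its probe sets. Groups came from the sample titles. limma 3.58.1 (R 4.3.3) fitted 1 mean per group to all arrays, with 12 residual degrees of freedom before moderation. Exact permutation tests used SciPy 1.17.1, figures matplotlib 3.10.9, and the fit was tested on simulated data.

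Named were all members, the 6 genes nearest to zp3b and zp2.6, up to 4 genes per list by range, mitfa, dct, krt4, krt5 and the vtg genes. The members and the 11 gene lists were chosen with earlier results of these data known. Alternatives were quantile normalization, median centring, array weights, a robust eBayes with a trend, fits to the compared groups alone, title number as a block, single probe sets, a range filter of 1 log2 unit and leaving out each array. No base sequences are given.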

Additional observations from a re-analysis of the deposited data

Results flagged for a closer look

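Melanoma 6 stood apart from the other 5 melanoma arrays in all 12 egg coat genes, with a gap to the nearest array of 0.656 to 0.960 of the group's whole range, above Dixon's 95% critical value for 6 samples. Its log2 values were 8.06 for zp2.6, 8.22 for zp2l1, 5.24 for zp2l2 and 7.62 for zp3.1. The zp3 genes read 8.07 for zp3a.1, 7.63 for zp3a.2, 8.00 for zp3b and 7.33 for zp3c. The remaining genes read 4.71 for zp3d.1, 5.29 for zp3d.2 and 6.38 for zp3f.2, and zp3f.1 read 9.51. Chance flags about 1 in 20 groups, and the 12 genes are not independent, since they were high in the same arrays. In the same array mitfa was at -0.40 and dct, an enzyme of pigment synthesis, at 0.79, against 2.28 to 3.36 and 2.51 to 6.45 in melanoma 1 to 5. Their part in the result was not tested.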

How the results depend on the processing

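The lower melanoma means of zp3b and zp2.6 kept their direction in every setting tried, and their calls did not. Array weights called both lower than in mutant skin (zp2.6 -6.56, zp3b -4.33) and wild-type skin (-7.94 and -5.93), and quantile normalization called zp2.6 lower than in mutant skin (-5.17). The labels do not say whether same-numbered melanoma and mutant skin arrays share a fish. Wild-type skin is of another genotype and cannot share a fish with them, so its numbers give no ground for a block by fish. Correlations of same-numbered deviations for melanoma and mutant skin were 0.069, -0.052, 0.437, 0.206, 0.376 and 0.673. No correlation of differently numbered arrays was computed beside them, so these values cannot settle the pairing. With the number as a replicate block both genes were called (zp2.6 -5.87, zp3b -4.20, and -7.88 and -5.17 against wild-type skin), as were 8 of the 12 egg coat genes against mutant skin, beside 7.9% of all genes, and 7 against wild-type skin, beside 9.23%. Array weights raised the genes called to 2864, 3882 and 286 in melanoma against mutant skin, melanoma against wild-type skin and mutant skin against wild-type skin; the last, 12 genes, was 7 with only its 2 groups and 30 as probe sets. The cause was not tested. Between mutant skin and wild-type skin, where nothing passed, signs turned on median centring for zp3a.2 (0.11) and zp3f.2 (0.077), on quantile normalization for zp3d.1 (-0.024), and for 1 of the 2 probe sets of zp3.1 (0.21). They also turned on array weights for zp3c (-0.45), zp3d.1 (-0.40) and zp3f.1 (-0.97), and with the replicate block for zp3d.1 (-0.033) and zp3f.1 (-1.0). Leaving out 1 array moved zp2.6 between -7.64 and -5.21 against mutant skin and -8.18 and -5.20 against wild-type skin, zp3b between -5.67 and -3.41 and between -6.74 and -2.78, and the genes called between 700 and 1962, 568 and 2016, and 7 and 21. For mutant skin against wild-type skin every member took both signs: zp2.6 ran from -2.15 to 0.88, zp2l1 from -2.59 to 1.18, zp2l2 from -0.62 to 2.26, zp3.1 from -1.95 to 1.08, zp3a.1 from -2.18 to 1.19, zp3a.2 from -2.09 to 1.49, zp3b from -2.53 to 1.42, zp3c from -1.40 to 2.18, zp3d.1 from -1.09 to 1.48, zp3d.2 from -0.68 to 1.76, zp3f.1 from -2.20 to 2.02 and zp3f.2 from -1.71 to 1.57. zp3b minus zp2.6 ran from 1.28 to 1.97 (against mutant skin), 1.28 to 2.42 and -0.38 to 0.76 (mutant skin against wild-type skin, below 0 without wild-type skin 3).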

Other observations

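zpcx and zpd, zona pellucida domain genes without a zp number, departed from the numbered genes in some arrays. zpcx read 7.12 in melanoma 6, 8.11 in mutant skin 6 and 7.59 in wild-type skin 1, but 0.20 in mutant skin 1, where zp2.6 read 6.94, and 3.32 in mutant skin 2, where zp2.6 read 7.58. zpd read 3.00 in melanoma 6, 4.38 and 4.21 in mutant skin 2 and 6 and 2.35 in wild-type skin 1, and 0.80 in mutant skin 1. In wild-type skin 2, where zp2.6 read 6.44 and the lowest of the 12 numbered genes, zp2l2, read 0.89, zpd read -0.58.

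Mutant skin 3, low in egg coat genes, read 4.12 for tdrd7a, a germ granule gene, against -0.72 to -0.33 in melanoma 1 to 5. ddx4, also a germ granule gene, read 2.79 there, against -1.02 to -0.34 in melanoma 1 to 5. piwil1 read 2.62, against -1.02 to -0.44, and piwil2 0.99, against -1.22 to 0.10. The other germ granule genes read -0.40 (tdrd5), -0.25 (tdrkh), -0.25 (asz1), -0.15 (nanos3), 0.06 (dnd1) and 0.36 (dazl) there. The level of that list was -0.42. star, a steroid synthesis gene, read 3.04 in mutant skin 3, while hsd3b2 read 0.02 and cyp17a1, also of steroid synthesis, 1.01. The level of the follicle list, which holds these genes, was 0.73 in mutant skin 3, higher than in any other array. The level of the 14 measured testis genes was 1.11 in mutant skin 3, also the highest of any array. Of that list, cimap1b read 2.57 in mutant skin 3, against -1.44 to -0.94 in melanoma 1 to 5. ccna1, a cyclin of germ cells on the testis list, instead followed the egg coat genes, at 7.29 in melanoma 6, -1.18 in mutant skin 3, 2.19 in mutant skin 5 and 1.65 in wild-type skin 3.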
